A study of Homo sapiens with 34 samples.

Results

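The GATA factors and their FOG cofactors form a set of 8 genes that was followed through cardiac differentiation of human embryonic stem cells: the 6 GATA transcription factors GATA1, GATA2, GATA3, GATA4, GATA5 and GATA6, and the cofactors ZFPM1 (FOG1) and ZFPM2 (FOG2). The members were chosen by name, and each was read from the RefSeq row of the count table with the most reads over all libraries; all 8 were found among the 23189 gene symbols of the table. GATA proteins are zinc finger factors that bind the DNA letters GATA with A or T before them and A or G after them, and FOG proteins do not rely on their own DNA site but dock on the N-terminal finger of a GATA factor and bring in the corepressors CtBP and NuRD. GATA1, GATA2 and GATA3 are best known from blood, endothelium, trophoblast and lymphocytes. GATA4, GATA5 and GATA6 act in heart, endoderm and extraembryonic endoderm, and ZFPM2 is the FOG protein of the heart, ZFPM1 that of red cells and megakaryocytes.

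All cells were H1, an established human embryonic stem cell line, infected with lentivirus and selected with puromycin. Cells labelled NKX2-5 shRNA, ZEB2 shRNA or ZNF503 shRNA carried a hairpin against that transcription factor, 1 line per gene chosen for its knockdown by PCR, and WT cells carried a hairpin against GFP or an empty vector, which of them is not given per library. RNA was taken from undifferentiated cells (day 0) and at days 2, 6 and 10 of a directed protocol: the GSK3 inhibitor CHIR99021 for the first day, the WNT inhibitor IWP2 from day 2 to day 5 and insulin at day 7. Each of the 15 groups had 2 libraries that were used (30 of 34). The other 4, which are day 10 replicates 1 and 2 from the ZEB2 shRNA line and from WT, had values in a row order that did not follow the identifiers of the table, and so day 10 rests on replicates 3 and 4 of these groups and replicates 1 and 2 of NKX2-5 shRNA cells. No ZNF503 shRNA library of day 10 was analysed here. The series describes its replicates as biological; if they were not separate cultures, the tests below measure technical spread only.

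Gene totals ran from 9189943 to 90814577 reads per library, with a median of 32191176, and the shallowest libraries were those of day 10 (9189943 to 29549874). A count of 0 allows up to 3 reads, for counting error only. Before TMM scaling, that is 0.0330 to 0.0774 counts per 1e+06 reads at day 0 and 0.102 to 0.326 at day 10. Levels below are in CPM (counts per 1e+06 reads after TMM scaling). The hairpin targets checked the labels in part. At day 6 NKX2-5 stood at 0.993 and 0.761 CPM in NKX2-5 shRNA cells against 84.2 and 50.4 in WT, ZNF503 at 0.611 and 0.648 CPM in ZNF503 shRNA cells against 8.71 and 9.33, and ZEB2 at 54.6 and 57.1 CPM in ZEB2 shRNA cells against 96.8 and 94.1, and each fall passed the test. These targets were not particular to their own line, since NKX2-5 and ZEB2 also passed as lower than WT at day 6 in both other lines, and ZNF503 in NKX2-5 shRNA cells. ZEB2 was even lower there than in its own line, at 20.5 CPM in both NKX2-5 shRNA libraries and 10.9 and 12.7 CPM in ZNF503 shRNA cells. At day 10 ZEB2 in ZEB2 shRNA cells was 55.0 and 54.9 CPM against 117 and 105 in WT (log2 fold change -1.02, SE 0.34, adjusted p = 0.079), which did not pass. ZNF503 in ZNF503 shRNA cells overlapped WT at day 2 (0.999 and 1.75 CPM against 1.09 and 1.96). It was not lower at day 0 either (0.157 and 0.110 CPM against 0.107 and 0.105). Loss of ZNF503 RNA was thus seen at day 6 and not before. At day 0 NKX2-5 had 5 and 8 reads in its line and 8 and 16 in WT, and ZEB2 had 6 and 14 in its line and 0 and 9 in WT. At day 2 NKX2-5 had 6 and 0 reads in its line and 6 and 4 in WT. ZEB2 was then 11.2 and 12.5 CPM in its line against 18.1 and 17.6 in WT. The 6 cardiomyocyte markers were present in WT cells, where they summed to 8382 to 10446 CPM (day 6) and 14233 to 17308 CPM (day 10), and they summed to 39.8 to 48.9 and 59.2 to 334 CPM in NKX2-5 shRNA cells, 4434 to 4947 and 4057 to 5956 CPM in ZEB2 shRNA cells and, at day 6, 158 to 210.5 CPM in ZNF503 shRNA cells. The part of these differences in cell composition in the results below was not tested: in bulk RNA, fewer cells of a type and less RNA per cell cannot be told apart.

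In WT cells the heart and endoderm factors GATA6 and GATA4 came up by day 2, and GATA5 mainly by day 6. GATA6 (NM_005257; chromosome 18, 19749550 to 19782491, plus strand, GRCh37) was at 0.454 and 0.628 CPM at day 0, 69.2 and 64.1 CPM at day 2, 82.9 and 88.0 CPM at day 6 and 109 and 140.0 CPM at day 10. Most of its log2 rise fell between day 0 and day 2 (log2 fold change 6.98, SE 0.21, adjusted p = 1.7e-08), and the step from day 2 to day 6 did not pass (log2 fold change 0.34, SE 0.14, adjusted p = 0.061). GATA4 (NM_002052; chromosome 8, 11534468 to 11617511, plus strand), the partner of NKX2-5 and TBX5 at cardiac promoters, stood at 0.747 and 0.733 CPM, then 20.4 and 23.1 CPM, 119.7 and 129 CPM and 146 and 222 CPM at the same days. It rose in all 3 steps, by 4.91 (SE 0.26), 2.50 (SE 0.19) and 0.59 (SE 0.17) on the log2 scale, with adjusted p = 5.2e-07, 2.1e-06 and 0.014; the last call was lost without WT day 10 replicate 4 or either day 6 library. GATA5 (NM_080473; chromosome 20, 61038553 to 61051051, minus strand), which is expressed in endocardium and gut, had 1.20 and 1.73 CPM at day 0 and 2.80 and 2.70 CPM at day 2, a step whose call was lost without any 1 library, and its main rise came between day 2 and day 6, to 28.8 and 31.4 CPM (log2 fold change 3.43, SE 0.30, adjusted p = 7.9e-06). At day 10 its 2 WT libraries lay apart, at 27.7 and 51.2 CPM, and the last step did not pass (adjusted p = 0.20).

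The FOG cofactors followed different courses. ZFPM2 (NM_012082; chromosome 8, 105602961 to 106816767, plus strand) stayed near the detection limit at day 0 (0.213 and 0.235 CPM) and day 2 (0.129 and 0.123 CPM) and then reached 39.8 and 43.7 CPM at day 6 and 105 and 113 CPM at day 10. Both later steps passed, with 8.30 (SE 0.22, adjusted p = 2.2e-09) from day 2 to day 6 and 1.41 (SE 0.12, adjusted p = 8.9e-06) from day 6 to day 10 on the log2 scale. ZFPM2 thus appeared after GATA6 and GATA4 were already well above their day 0 levels. ZFPM1 (NM_153813; chromosome 16, 88519688 to 88603439, plus strand) was present in undifferentiated cells at 2.00 and 2.07 CPM and rose in small steps, to 3.60 and 4.66 CPM at day 2, 7.76 and 7.92 CPM at day 6 and 9.07 and 20.6 CPM at day 10. Its change from day 0 to day 10 was 2.90 (SE 0.37, adjusted p = 4.5e-05), but the call for its first step was lost without any 1 library (adjusted p up to 0.19) and that for its last step without any of the 4 except WT day 10 replicate 3 (up to 0.48).

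GATA2 and GATA3 rose late in WT cells and fell back. GATA2 (NM_001145661; chromosome 3, 128198270 to 128212044, minus strand), a factor of blood stem cells and endothelium, was the one GATA gene to pass as lower at day 2 than at day 0: it went from 3.90 and 2.93 CPM at day 0 to 0.579 and 0.675 CPM at day 2 (log2 fold change -2.42, SE 0.38, adjusted p = 6.0e-04), up to 16.6 and 18.4 CPM at day 6 and down to 3.14 and 6.02 CPM at day 10 (log2 fold change -1.96, SE 0.30, adjusted p = 3.8e-04 for the last step). Its day 10 level did not pass against that of day 0 (log2 fold change 0.42, SE 0.31, adjusted p = 0.24), and that difference ranged from -0.08 without WT day 10 replicate 4 to 0.88 without replicate 3, which passed. GATA3 (NM_001002295; chromosome 10, 8087341 to 8117161, plus strand), known from T lymphocytes, trophoblast and kidney duct, was at 0.374 and 0.419 CPM at day 0 and 0.225 and 0 CPM at day 2, a difference that did not pass (log2 fold change -1.38, SE 0.72, adjusted p = 0.14) but did without WT day 2 replicate 1 (adjusted p = 0.035). At day 6 it was at 19.5 and 24.3 CPM (log2 fold change 7.18, SE 0.50, adjusted p = 1.2e-06 against day 2). By day 10 it was 9.54 and 14.9 CPM, lower than at day 6 (log2 fold change -0.83, SE 0.31, adjusted p = 0.040), a call lost without WT day 10 replicate 3 or either day 6 library. Markers of T lymphocytes were close to 0 at day 6, summing to 0 to 0.0722 CPM over 5 genes. GATA1 (NM_002049; chromosome X, 48644948 to 48652718, plus strand), the master factor of red cells and megakaryocytes, had no read in WT cells at days 0, 2 and 6, and 6 and 2 reads at day 10.

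Of the 7 members tested over time in WT cells, 5 passed at day 2 (4 higher, 1 lower), 7 at day 6 and 6 at day 10 against day 0. Of all genes tested, 44.1%, 60.9% and 73.8% passed in these comparisons. Limits of 4-fold at day 2 and 8-fold at days 6 and 10 were met by 3, 5 and 5 members and by 8.36%, 10.2% and 15.5% of all genes. Between neighbouring days, 49.8% of all genes passed from day 2 to day 6 and 57.5% from day 6 to day 10. The median change of the members was 5.80 on the log2 scale at day 6, where the median of all genes was 0.029, and 4.97 at day 10, where the median of all genes was 0.102. The plot of all libraries shows the order of these rises.

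**Figure D1:**
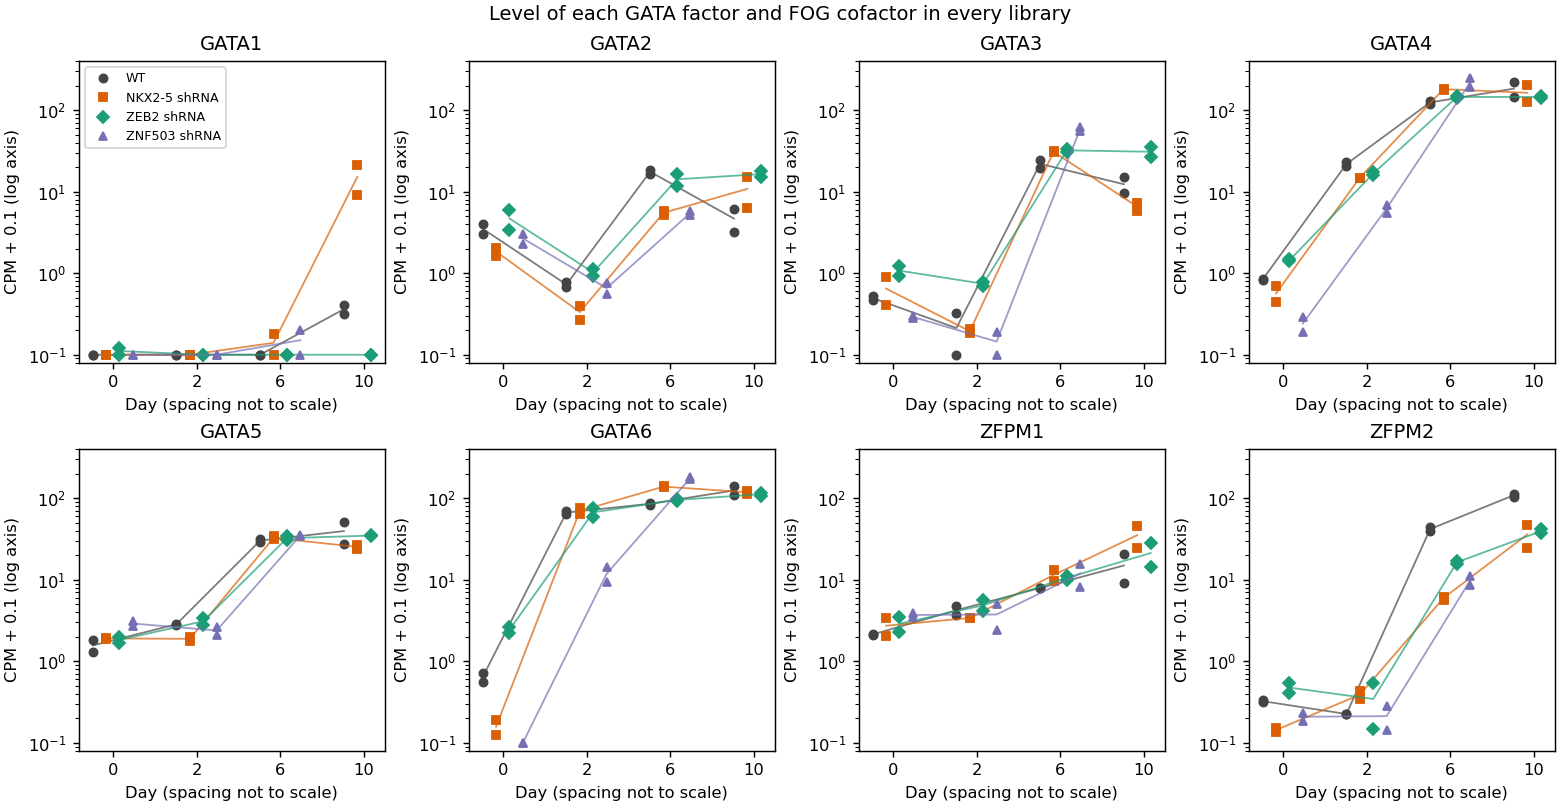
Level of each of the 8 members (CPM + 0.1, log axis) at days 0, 2, 6 and 10; each point is 1 library, each line joins the group means, and colours and symbols give the line. GATA6 and GATA4 rise by day 2 and ZFPM2, GATA2, GATA3 and GATA5 by day 6, and GATA1 stands out only in the 2 NKX2-5 shRNA libraries of day 10, at 21.0 and 9.12 CPM.

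Levels of different genes were compared per kilobase of exon, using the canonical GENCODE transcript of each gene (1464 bases for GATA1 to 3624 for GATA6). In WT cells at day 0 the 6 GATA genes summed to 2.06 ± 0.0185 CPM per kilobase (SD, n = 2), of which GATA2 made up 48.9% ± 9.35 and GATA5 27.1% ± 7.13. By day 2 the sum was 26.0 ± 0.498, and GATA6 held 70.7% ± 2.49 of it. At day 6 the sum was 83.7 ± 5.08, and GATA4 had the first place with 43.4% ± 0.388, ahead of GATA6 with 28.2% ± 0.524. The summed GATA level at day 6 was higher in both NKX2-5 shRNA libraries (115 ± 0.507) and both ZNF503 shRNA libraries (147 ± 15.1) than in both WT libraries, whereas at day 2 it was 6.08 ± 1.07 in ZNF503 shRNA cells. At day 10 the sums of WT (109 ± 29.9), NKX2-5 shRNA (106 ± 21.2) and ZEB2 shRNA cells (101 ± 2.76) overlapped. These sums and shares are descriptions and were not tested.

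**Figure D2:**
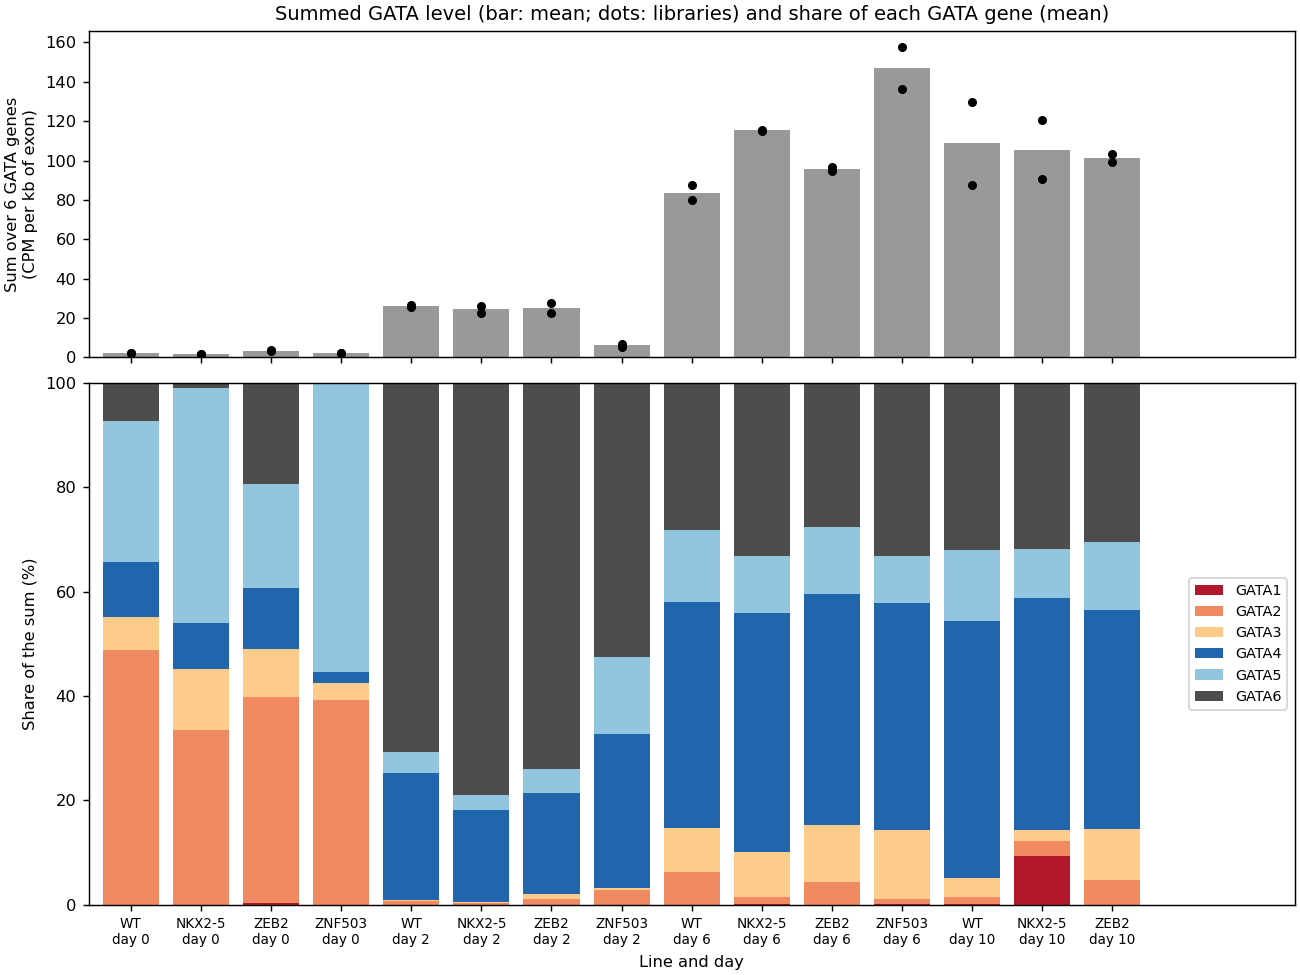
Upper panel, summed level of the 6 GATA genes in CPM per kilobase of exon, with bars for the group mean and dots for the 2 libraries; lower panel, the mean share of each GATA gene in that sum, in percent, for the 15 groups. GATA6 fills most of the day 2 bars, GATA4 leads at days 6 and 10, and GATA1 reaches 9.39% ± 3.54 (SD, n = 2) in NKX2-5 shRNA cells at day 10.

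Before differentiation, GATA6 was the member that passed in all 3 shRNA lines. At day 0 it was 0.454 and 0.628 CPM in WT, 0.0257 and 0.0895 CPM in NKX2-5 shRNA cells (1 and 5 reads), 2.54 and 2.13 CPM in ZEB2 shRNA cells and 0 in both ZNF503 shRNA libraries. The ranges of the 4 lines did not overlap, although those of NKX2-5 and ZNF503 shRNA cells lay at the detection limit. Against WT it was lower in NKX2-5 shRNA cells (log2 fold change -3.09, SE 0.60, adjusted p = 0.0068) and higher in ZEB2 shRNA cells (log2 fold change 2.08, SE 0.39, adjusted p = 0.014), and in ZNF503 shRNA cells it was at least 9.94-fold lower (adjusted p = 0.0022), taking 0 as 3 reads per library. These are low levels next to those of day 2. The hairpin targets were themselves near the detection limit at day 0. With 1 line per gene, an effect of a hairpin on day 0 levels cannot be told apart from other differences between lines. The call in ZEB2 shRNA cells was lost when any 1 of the 4 libraries was left out (adjusted p from 0.070 to 0.14), that in NKX2-5 shRNA cells without WT replicate 2 (0.057) and that in ZNF503 shRNA cells without its replicate 2 (0.054).

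GATA4 was 0.0899 and 0.193 CPM in ZNF503 shRNA cells at day 0 against 0.747 and 0.733 in WT (log2 fold change -2.29, SE 0.48, adjusted p = 0.017), and GATA2 was 1.95 and 1.54 CPM in NKX2-5 shRNA cells against 3.90 and 2.93 (log2 fold change -0.99, SE 0.31, adjusted p = 0.049). Both calls were lost without any 1 of their 4 libraries, with adjusted p up to 0.12 and 0.27. In all, 2, 1 and 2 of 7 tested members passed for the NKX2-5, ZEB2 and ZNF503 hairpins, beside 15.9%, 3.93% and 7.53% of all genes. By limits of a 2-fold change at a false discovery rate of 10%, 2, 1 and 2 members were called, with ZFPM2 in place of GATA2 for the NKX2-5 hairpin (-2.36, SE 0.76, adjusted p = 0.055, on 2 and 2 reads against 8 and 9 in WT), limits that 4.03%, 2.20% and 2.56% of all genes met. All comparisons of a day share the same 2 WT libraries.

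Most endodermal genes that passed at day 0 did so on the same side as GATA6. Of 10 tested, 6 passed as lower and 1 as higher in NKX2-5 shRNA cells, 5 as lower and 1 as higher in ZNF503 shRNA cells, and 5 as higher and 0 as lower in ZEB2 shRNA cells, with medians of -2.31, -1.96 and 1.48 on the log2 scale. Of all genes, 7.64% passed as lower and 8.23% as higher in NKX2-5 shRNA, 3.52% and 4.01% in ZNF503 shRNA and 1.46% and 2.47% in ZEB2 shRNA cells. The medians of all genes were -0.002, 0.011 and -0.001. In ZEB2 shRNA cells the largest rise was that of APOA1, the main protein of high-density lipoprotein, at 2.91 (SE 0.34). AFP, the fetal albumin of yolk sac and liver, went against the list in NKX2-5 shRNA cells, where it rose by 3.07 (SE 0.49).

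At day 2, the mesendoderm stage, ZNF503 shRNA cells had the lowest GATA4 and GATA6 of the 4 lines. GATA6 was 69.2 and 64.1 CPM in WT, 63.6 and 75.8 in NKX2-5 shRNA, 59.1 and 75.2 in ZEB2 shRNA and 9.21 and 14.3 CPM in ZNF503 shRNA cells. The first 3 lines overlapped and the ZNF503 shRNA libraries stood below all others (log2 fold change -2.60, SE 0.19, adjusted p = 1.9e-07). GATA4 was 20.4 and 23.1 CPM in WT, 14.7 and 14.8 in NKX2-5 shRNA, 15.7 and 17.4 in ZEB2 shRNA and 5.43 and 6.84 CPM in ZNF503 shRNA cells, again without overlap between ZNF503 shRNA cells and the rest (log2 fold change -1.90, SE 0.17, adjusted p = 1.2e-06). In NKX2-5 shRNA cells GATA4 fell less (log2 fold change -0.59, SE 0.16, adjusted p = 0.014), a call lost without NKX2-5 shRNA replicate 1 or WT replicate 2 (adjusted p up to 0.12) and in 1 fit of all libraries.

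The difference between the lines was tested directly. ZNF503 shRNA cells were below NKX2-5 shRNA cells at day 2 for GATA6 (log2 difference of NKX2-5 shRNA minus ZNF503 shRNA 2.63, SE 0.19, adjusted p = 1.1e-07) and GATA4 (1.31, SE 0.17, adjusted p = 2.6e-05), and below ZEB2 shRNA cells for both as well (2.57, SE 0.19, adjusted p = 1.8e-07 and 1.47, SE 0.16, adjusted p = 1.2e-05, ZEB2 shRNA minus ZNF503 shRNA). In this comparison with ZEB2 shRNA cells 29.3% of all genes passed, and in that with NKX2-5 shRNA cells 39.5%. GATA3 also passed as higher in ZEB2 than in ZNF503 shRNA cells (3.20, adjusted p = 0.0056), the latter with 8 and 0 reads. Between NKX2-5 and ZEB2 shRNA cells, GATA2 (-1.86) and GATA3 (-2.67) passed as lower in the first, beside 23.2% of all genes. Both of these calls were lost without replicate 2 of either line. Against WT, 2, 1 and 0 of 7 tested members passed by edgeR for the ZNF503, NKX2-5 and ZEB2 hairpins; in the last, 2 had an unadjusted p under 0.05 and DESeq2 called 0. The shares of all genes were 26.9%, 26.7% and 0.490%. GATA6 in ZNF503 shRNA cells alone met the stricter day 2 limits of a 4-fold change at a false discovery rate of 10%, as did 2.80% of all genes there and 1.19% and 0.133% for the other hairpins. GATA5 and both FOG genes did not pass at day 2 in any line.

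Most endodermal genes and 9 of 16 BMP genes passed as lower, as did GATA4 and GATA6, in ZNF503 shRNA cells at day 2, beside 13.8% of all genes that passed as lower and 13.1% as higher. Of 7 endodermal genes tested, 6 passed as lower and 0 as higher (median -2.27, all genes -0.009), among them the chemokine receptor CXCR4 at -4.24 (SE 0.12). Of the 16 BMP genes, 2 passed as higher and 5 did not pass (median -0.56); BMP signals switch on GATA genes in mesoderm. The ligand BMP2 changed by -2.41 (SE 0.16) and the BMP target MSX2 by -2.37 (SE 0.22), while the receptor BMPR1A rose by 0.55 (SE 0.09). Mesendoderm markers moved with this: all 5 passed as lower in ZNF503 shRNA cells, summing to 375 to 475 CPM against 784 to 825 CPM in WT, and 4 of 5 pluripotency markers passed as higher (2857 to 2943 against 2294 to 2309.6 CPM). The part of these shifts in the GATA4 and GATA6 values was not tested.

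By day 6 the order of ZNF503 shRNA and WT cells had turned round, and both ZNF503 shRNA and NKX2-5 shRNA cells had more GATA4 and GATA6 than WT cells. GATA6 was 82.9 and 88.0 CPM in WT, 91.9 and 98.7 in ZEB2 shRNA, 135 and 142 in NKX2-5 shRNA and 183 and 169.8 CPM in ZNF503 shRNA cells, 4 ranges that did not overlap. Against WT the change was 0.69 (SE 0.10, adjusted p = 1.6e-04) in NKX2-5 shRNA and 1.04 (SE 0.11, adjusted p = 6.4e-06) in ZNF503 shRNA cells on the log2 scale. GATA4 was 119.7 and 129 CPM in WT, 149.6 and 141 in ZEB2 shRNA, 184 and 178 in NKX2-5 shRNA and 246 and 194 CPM in ZNF503 shRNA cells. Its change was 0.54 (SE 0.12, adjusted p = 0.003) in NKX2-5 shRNA and 0.82 (SE 0.12, adjusted p = 1.5e-04) in ZNF503 shRNA cells, and it did not pass in ZEB2 shRNA cells (log2 fold change 0.23, SE 0.12, adjusted p = 0.29). GATA5 was between 28.8 and 35.4 CPM in all 8 libraries of day 6 and passed in no line, its largest change being 0.20 (SE 0.13, adjusted p = 0.21) in ZNF503 shRNA cells.

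ZFPM2 went the other way. At day 6 it was 39.8 and 43.7 CPM in WT, 15.5 and 17.1 in ZEB2 shRNA, 8.50 and 11.1 in ZNF503 shRNA and 5.63 and 6.13 CPM in NKX2-5 shRNA cells, with no overlap between any 2 lines. It was lower than WT in all 3, at -2.83 (SE 0.18, adjusted p = 1.0e-07) in NKX2-5 shRNA, -2.10 (SE 0.17, adjusted p = 1.3e-06) in ZNF503 shRNA and -1.36 (SE 0.17, adjusted p = 2.4e-04) in ZEB2 shRNA cells on the log2 scale. Each of these calls held without any 1 library. NKX2-5 shRNA cells were also lower than ZEB2 shRNA cells (log2 fold change -1.47, SE 0.18, adjusted p = 2.7e-05), whereas the call against ZNF503 shRNA cells (log2 fold change -0.74, SE 0.18, adjusted p = 0.018) was lost without either NKX2-5 shRNA library or ZNF503 shRNA replicate 2. The cardiomyocyte markers were lowest in the same 2 lines in which ZFPM2 was lowest; their part was not tested. ZFPM1 was not called in any line at day 6 (0.53, 0.41 and 0.58 on the log2 scale in NKX2-5, ZEB2 and ZNF503 shRNA cells, with adjusted p of 0.13, 0.41 and 0.093); it passed in NKX2-5 and ZNF503 shRNA cells without a filter on low counts, and in ZNF503 shRNA cells without their replicate 2.

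GATA2 and GATA3 parted at day 6. GATA2 was 16.6 and 18.4 CPM in WT and 16.4 and 11.8 in ZEB2 shRNA cells, against 5.66 and 5.15 in NKX2-5 shRNA and 5.09 and 5.67 CPM in ZNF503 shRNA cells. The last 2 lines overlapped and lay below the others, with changes against WT of -1.70 (SE 0.20, adjusted p = 2.3e-05) and -1.70 (SE 0.21, adjusted p = 3.0e-05). GATA3 was 19.5 and 24.3 CPM in WT, 31.2 and 30.2 in NKX2-5 shRNA, 33.8 and 30.4 in ZEB2 shRNA and 62.7 and 56.0 CPM in ZNF503 shRNA cells, and every shRNA library was above both WT libraries. The rise was 1.43 (SE 0.15, adjusted p = 6.3e-06) in ZNF503 shRNA cells. It was 0.48 (SE 0.14, adjusted p = 0.015) in NKX2-5 shRNA and 0.56 (SE 0.14, adjusted p = 0.027) in ZEB2 shRNA cells, 2 calls that were each lost when any library except WT replicate 2 was left out (adjusted p up to 0.15 and 0.21) and in 1 fit of all libraries. Within a library the count of GATA3 per count of GATA2 was 1.18 and 1.32 in WT and 12.3 and 9.87 in ZNF503 shRNA cells. GATA1 had 0 and 4 reads in NKX2-5 shRNA, 2 and 0 in ZNF503 shRNA and none in WT and ZEB2 shRNA cells.

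In all, 5 of 7 tested members passed at day 6 for the NKX2-5 hairpin, 3 upward and 2 downward, and likewise 5 for the ZNF503 hairpin, 3 upward and 2 downward. For the ZEB2 hairpin 2 passed, GATA3 upward and ZFPM2 downward. Of all genes 49.1% (NKX2-5), 55.7% (ZNF503) and 11.0% (ZEB2) passed, so that passing was common for the first pair. No member reached the stricter limits of an 8-fold change at a false discovery rate of 1%, which 4.71%, 3.91% and 0.462% of all genes met. Between lines, 44.4% of all genes passed for NKX2-5 against ZEB2 shRNA and 14.7% for NKX2-5 against ZNF503 shRNA.

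**Figure D3:**
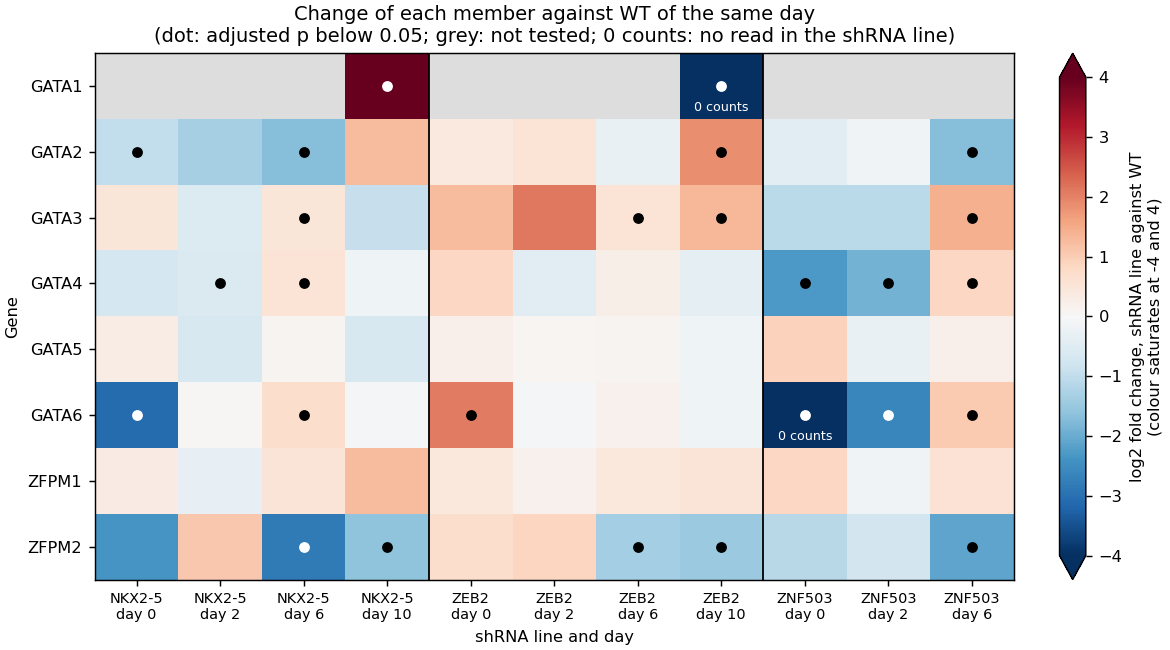
Log2 fold change of each member in each shRNA line against WT of the same day, as colour, for the 11 comparisons; dots mark an adjusted p below 0.05, grey fields were not tested, and "0 counts" marks fields in which the shRNA line had no read, whose fitted value is no measure of size. ZFPM2 is blue in all day 6 and day 10 columns, and GATA6 changes from blue at days 0 and 2 to red at day 6 in ZNF503 shRNA cells.

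GATA6 has a divergent antisense RNA, GATA6-AS1 (NR_102763, chromosome 18, 19744847 to 19749839, minus strand, GRCh37). By these GENCODE positions its 5′ part overlaps the first bases of GATA6. By RefSeq in GRCh38.p14 the starts of both lie 621 bases apart and point away from each other, without overlap. The 250 bases upstream of each RefSeq start are given because the levels of these 2 transcripts parted in the knockdown lines. They are chr18:22169339-22169588 on the plus strand and chr18:22168969-22169218 on the minus strand, written 5′ to 3′ in lower case, and neither holds the GATA motif (the letters GATA with A or T before and A or G after) on either strand. Of all 35116 RefSeq promoters of this length 22.3% do.
GATA6: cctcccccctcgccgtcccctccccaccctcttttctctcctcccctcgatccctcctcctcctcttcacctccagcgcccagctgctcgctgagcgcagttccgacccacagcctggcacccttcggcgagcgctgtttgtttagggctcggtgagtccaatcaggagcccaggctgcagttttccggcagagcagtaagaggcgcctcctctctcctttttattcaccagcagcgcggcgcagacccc
GATA6-AS1: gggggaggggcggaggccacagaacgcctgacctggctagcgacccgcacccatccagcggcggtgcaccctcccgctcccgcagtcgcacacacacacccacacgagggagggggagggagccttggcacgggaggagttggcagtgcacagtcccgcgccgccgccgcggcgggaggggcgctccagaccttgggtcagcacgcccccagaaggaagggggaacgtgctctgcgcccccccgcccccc

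At day 6 GATA6-AS1 was 65.8 and 57.4 CPM in WT and 67.9 and 58.2 in ZEB2 shRNA cells, but 18.7 and 18.2 in NKX2-5 shRNA and 13.8 and 14.5 CPM in ZNF503 shRNA cells. The last 2 lines were thus the ones with the most GATA6 and the least GATA6-AS1, at -1.75 (SE 0.14, adjusted p = 6.6e-07) and -2.12 (SE 0.14, adjusted p = 2.3e-07) against WT on the log2 scale. Per count of GATA6, WT libraries had 0.794 and 0.652 counts of GATA6-AS1, NKX2-5 shRNA libraries 0.138 and 0.128 and ZNF503 shRNA libraries 0.0757 and 0.0857. At day 2 the antisense RNA had been higher than WT in NKX2-5 shRNA cells, 39.4 and 45.0 CPM against 22.0 and 22.6 (log2 fold change 0.89, SE 0.17, adjusted p = 0.0017), while GATA6 itself did not pass (log2 fold change 0.03, SE 0.17, adjusted p = 0.91). In ZNF503 shRNA cells of day 2 it was 1.65 and 2.16 CPM (log2 fold change -3.68, SE 0.21, adjusted p = 1.7e-08). The antisense RNA was also lower with the NKX2-5 hairpin at day 10, with 15.9 and 19.2 CPM of GATA6-AS1 against 73.3 and 72.6 in WT (log2 fold change -2.05, SE 0.21, adjusted p = 5.6e-04) and no call for GATA6 (log2 fold change -0.07, SE 0.20, adjusted p = 0.80). Whether the counting used the strand is not stated. Without strand, reads in any overlap of the counted regions of GATA6 and GATA6-AS1, or of GATA3 and GATA3-AS1, cannot be told apart.

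**Figure D4:**
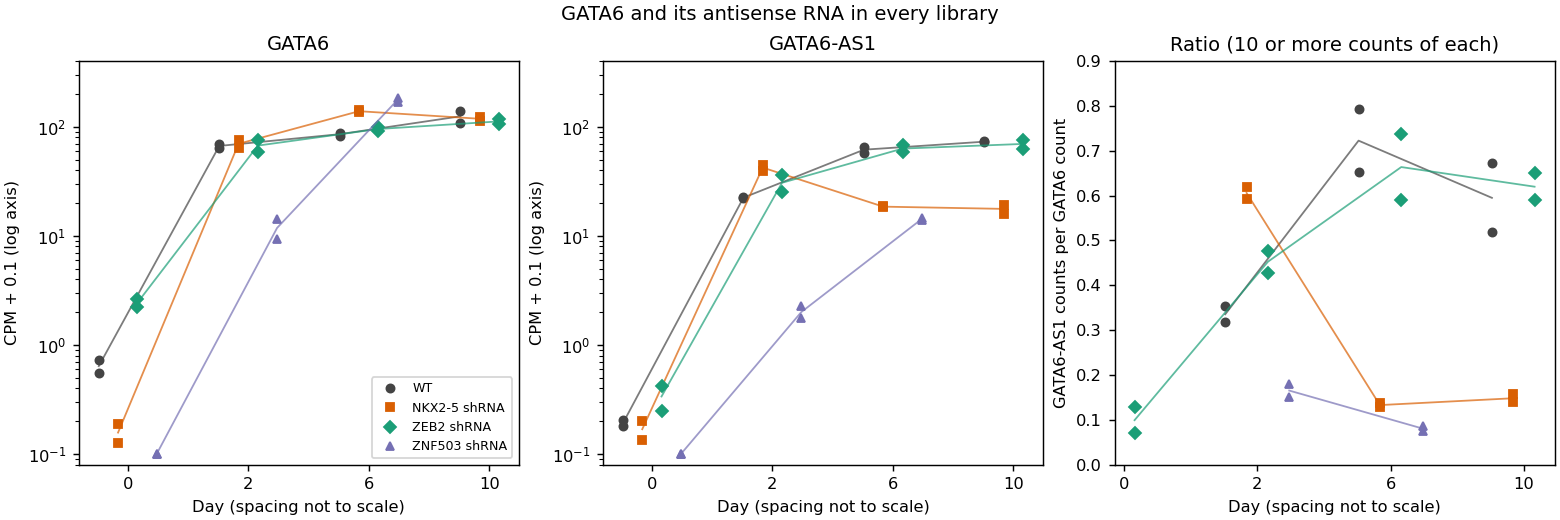
Levels of GATA6 (left) and GATA6-AS1 (middle) in CPM + 0.1 on a log axis and the count of GATA6-AS1 per count of GATA6 (right, libraries with at least 10 counts of each), by day and line; points are libraries and lines join group means. At day 6 the ratio was 0.794 and 0.652 in WT libraries and 0.0757 and 0.0857 in ZNF503 shRNA libraries.

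By the GENCODE positions GATA3-AS1 (chromosome 10, 8092413 to 8095447, minus strand) lies opposite the 5′ part of GATA3. RefSeq places GATA3 starts on both sides of the GATA3-AS1 starts, so the layout depends on the transcript. GATA3-AS1 was 4.42 and 4.26 CPM in WT at day 6 and 5.14 and 4.62 in ZNF503 shRNA cells, where GATA3 rose. Its own change did not pass (log2 fold change 0.16, SE 0.23, adjusted p = 0.57). At day 10 it was 0.763 and 0.803 CPM in NKX2-5 shRNA cells, 2.73 and 3.98 in WT and 6.24 and 5.50 in ZEB2 shRNA cells. It was lower than WT in NKX2-5 shRNA cells (log2 fold change -2.07, SE 0.43, adjusted p = 0.0077).

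GATA1 appeared in the NKX2-5 shRNA libraries of day 10. It was 21.0 and 9.12 CPM there (440 and 193 reads), 0.309 and 0.215 in WT (6 and 2 reads) and 0 in both ZEB2 shRNA libraries. Both NKX2-5 shRNA libraries were above every other library, also against the 0 to 4 reads of all libraries before day 10. The change against WT was 5.76 (SE 0.67, adjusted p = 0.0013) on the log2 scale and held without any 1 library (lowest 5.02, highest adjusted p 0.023); against ZEB2 shRNA cells the level was at least 136-fold higher, taking 0 as 3 reads per library (adjusted p = 0.002). The fall in ZEB2 shRNA cells against WT passed with an adjusted p of 0.043, but it rests on 8 WT reads and was lost without any 1 of the 4 libraries. The WT libraries at day 10 carry replicate numbers 3 and 4 and the NKX2-5 shRNA libraries 1 and 2; whether these were made at different times is not given and cannot be told apart from the knockdown.

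Partners and targets of GATA1 rose with it. Of 25 erythroid and megakaryocytic genes tested at day 10, 22 passed as higher and 0 as lower in NKX2-5 shRNA cells (median 4.41, all genes 0.028), where 23.3% of all genes passed as higher. The study had already named several of the 25, among them globin genes, PF4, KLF1 and TAL1, as raised in these cells. The count therefore partly restates its finding and is no independent result. The largest rises were those of GP9, a platelet adhesion receptor subunit (6.30, SE 0.89, 7.14 and 14.5 CPM), and of the embryonic globin HBZ (5.86, SE 0.89, 108 and 170.0 CPM against 0.753 and 3.61 in WT). In ZEB2 shRNA cells 8 of the 25 passed as lower and 2 as higher (median -1.76), beside 7.67% and 10.6% of all genes. The 2 that rose there were RUNX1, the factor that starts blood from endothelium (3.67, SE 0.52), and FLI1, shared by endothelium and megakaryocytes (1.48, SE 0.33), and the largest falls were in HBA1 (-5.81, SE 1.14) and HBA2 (-4.65, SE 0.82). The near-identical pairs HBA1 and HBA2, and HBG1 and HBG2, share reads and are uncertain one by one. All 9 erythroid markers, which are also in the list, passed as higher in NKX2-5 shRNA cells, summing to 2116 to 2683 CPM against 18.1 to 102 CPM in WT, as did all 5 of megakaryocytes and platelets (142 to 167 against 3.87 to 7.63 CPM), and no more than 10.5 CPM was summed over the erythroid ones in ZEB2 shRNA cells.

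The 250 bases upstream of a RefSeq start of GATA1 and of 3 of its partners or targets are shown because these genes rose together. The 3 were chosen after their values were seen. KLF1, a red cell transcription factor, was 7.89 and 8.87 CPM in NKX2-5 shRNA and 0.722 and 0.860 CPM in WT cells at day 10 (log2 fold change 3.42, SE 0.52, adjusted p = 0.0023). ALAS2, the first enzyme of heme synthesis in red cells, was 45.9 and 54.9 against 0.860 and 1.55 CPM (5.32, SE 0.35, adjusted p = 1.7e-04). TAL1, a partner in the same complex, was 30.4 and 41.6 against 1.29 and 2.47 CPM (4.21, SE 0.38, adjusted p = 3.9e-04). The windows are chrX:48786340-48786589 on the plus strand, chr19:12887202-12887451 on the minus strand, chrX:55030978-55031227 on the minus strand and chr1:47232336-47232585 on the minus strand (GRCh38.p14, RefSeq), with matches to the same GATA motif on either strand in capitals.
GATA1: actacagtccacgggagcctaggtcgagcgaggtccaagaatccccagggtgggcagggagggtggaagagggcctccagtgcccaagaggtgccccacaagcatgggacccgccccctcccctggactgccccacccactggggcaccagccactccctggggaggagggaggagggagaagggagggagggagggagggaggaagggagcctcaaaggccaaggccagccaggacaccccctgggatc
KLF1: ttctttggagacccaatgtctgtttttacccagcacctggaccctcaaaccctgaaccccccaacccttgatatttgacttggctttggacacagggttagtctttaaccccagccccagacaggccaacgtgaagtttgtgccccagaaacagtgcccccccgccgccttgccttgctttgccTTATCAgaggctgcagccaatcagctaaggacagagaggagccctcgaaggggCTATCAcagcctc
ALAS2: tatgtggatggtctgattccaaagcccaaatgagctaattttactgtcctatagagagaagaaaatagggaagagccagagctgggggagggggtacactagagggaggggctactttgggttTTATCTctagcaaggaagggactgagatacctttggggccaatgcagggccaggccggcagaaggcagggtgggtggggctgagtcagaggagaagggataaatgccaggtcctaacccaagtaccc
TAL1: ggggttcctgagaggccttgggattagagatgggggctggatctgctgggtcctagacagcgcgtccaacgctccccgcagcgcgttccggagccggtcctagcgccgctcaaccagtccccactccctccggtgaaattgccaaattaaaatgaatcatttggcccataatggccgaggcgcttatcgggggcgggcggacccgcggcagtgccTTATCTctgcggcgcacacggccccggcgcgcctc
The window of GATA1 has no match, that of KLF1 has matches that begin 66 and 13 bases before the start, and those of ALAS2 and TAL1 have 1 each, 127 and 35 bases before it. TAL1 has another RefSeq start whose window has no match. Its window was shown because it holds the match. RefSeq promoters were at hand for 13 of the 25 genes of the list, and 9 of them (69.2%) had a match in at least 1 promoter, beside 26.2% of all genes with a promoter. Of the members, promoters were at hand for 5, and none of their 11 windows had a match. The list was made up of partners and targets of GATA1, so its share is no result of these data. A match describes these letters only.

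ZFPM1, the cofactor through which GATA1 acts in red cells, had 45.7 and 24.6 CPM in the same NKX2-5 shRNA libraries, above 9.07 and 20.6 CPM in WT, and 28.0 and 14.4 in ZEB2 shRNA cells, which overlapped both. The change against WT was 1.27 (SE 0.51, adjusted p = 0.078) on the log2 scale and did not pass by edgeR within day 10. It passed in 1 fit of all libraries, by DESeq2 and without NKX2-5 shRNA replicate 2. Within NKX2-5 shRNA cells the step from day 6 to day 10 passed (log2 fold change 1.58, SE 0.36, adjusted p = 0.0086), a call lost without NKX2-5 shRNA day 6 replicate 1; 49.1% of all genes passed in this step.

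GATA2 and GATA3 were highest at day 10 in ZEB2 shRNA cells. GATA2 was 17.8 and 14.8 CPM there, 15.2 and 6.24 in NKX2-5 shRNA and 3.14 and 6.02 CPM in WT cells. It was above WT in both lines, but passed only in ZEB2 shRNA cells (log2 fold change 1.85, SE 0.51, adjusted p = 0.045); in NKX2-5 shRNA cells, whose libraries lay far apart, it did not (log2 fold change 1.26, SE 0.51, adjusted p = 0.079), and the 2 lines did not differ from each other by the test (log2 fold change -0.59, SE 0.48, adjusted p = 0.40). GATA3 was 34.8 and 26.8 CPM in ZEB2 shRNA, 9.54 and 14.9 in WT and 7.16 and 5.77 CPM in NKX2-5 shRNA cells, 3 ranges without overlap. The rise in ZEB2 shRNA cells was 1.33 (SE 0.31, adjusted p = 0.027), the fall in NKX2-5 shRNA cells just missed the threshold (log2 fold change -0.91, SE 0.32, adjusted p = 0.051), and both lines differed from each other (log2 fold change -2.24, SE 0.32, adjusted p = 0.0057). The ZEB2 shRNA calls for GATA2 and GATA3 were lost without any 1 of the 4 libraries (adjusted p from 0.10 to 0.23 and from 0.063 to 0.23).

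Trophoblast and amnion genes, a program in which GATA2 and GATA3 act, were higher in the same ZEB2 shRNA cells. Of 14 tested, 10 passed as higher and 0 as lower (median 3.86, all genes 0.026), beside 10.6% of all genes that passed as higher. GABRP, a GABA receptor subunit of amnion, was 655 and 734 CPM against 1.70 and 2.58 in WT (8.38, SE 0.85), and TFAP2B, an AP-2 transcription factor, 5.55 and 8.53 CPM against 0 in both WT libraries. In NKX2-5 shRNA cells 6 of the 14 passed as higher and 1 as lower (median 0.79), beside 23.3% and 20.6% of all genes. There CDX2, a factor of trophoblast and hindgut, rose by 5.44 (SE 0.42). The endothelial list linked to GATA2 had 6 of 12 higher in ZEB2 shRNA cells and 9 higher and 1 lower in NKX2-5 shRNA cells, where ERG, an endothelial ETS factor, rose by 5.90 (SE 1.14) and the VEGF receptor KDR changed by -2.40 (SE 0.35).

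ZFPM2 stayed low at day 10, at 24.7 and 47.1 CPM in NKX2-5 shRNA and 36.9 and 41.4 in ZEB2 shRNA cells against 105 and 113 CPM in WT. Both lines were below both WT libraries and overlapped each other, with -1.60 (SE 0.30, adjusted p = 0.0054) and -1.49 (SE 0.30, adjusted p = 0.017) against WT. The second call was lost without any 1 of its 4 libraries, the first held without each. GATA4, GATA5 and GATA6 did not pass in either line. GATA4 was 146 and 222 CPM in WT, 202 and 125 in NKX2-5 shRNA and 150.0 and 140.5 in ZEB2 shRNA cells, and GATA6 109 and 140.0 CPM, 114 and 123 and 106 and 117. The 3 lines overlapped for both, with changes in NKX2-5 shRNA cells of -0.16 (SE 0.30) for GATA4 and -0.07 (SE 0.20) for GATA6. Of 8 tested members, 2 passed for the NKX2-5 and 4 for the ZEB2 hairpin, beside 43.9% and 18.2% of all genes, and 2 passed between the 2 lines, beside 21.3%. GATA1 in NKX2-5 shRNA cells alone met the 8-fold limit at a false discovery rate of 1%, as did 7.31% of all genes there and 1.46% in ZEB2 shRNA cells.

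Cardiac and hepatic partners of GATA4 and GATA6 moved apart while these 2 factors were present at or above the WT level. At day 6, 17 of 18 cardiac partners and targets, NKX2-5 itself among them, passed as lower and 1 as higher in NKX2-5 shRNA cells (median -5.41), 16 and 1 in ZNF503 shRNA cells (-4.52) and 10 and 2 in ZEB2 shRNA cells (-0.71), beside 24.7%, 28.5% and 5.33% of all genes that passed as lower. MYH6, the atrial heavy chain of myosin, was 3949 and 4619 CPM in WT and 0.461 and 0.662 CPM in NKX2-5 shRNA cells (-12.96, SE 0.32). NPPB, the peptide hormone BNP, was the cardiac gene that rose in all 3 lines, at 0.88 (SE 0.19), 0.89 (SE 0.19) and 1.92 (SE 0.19) in NKX2-5, ZEB2 and ZNF503 shRNA cells. In contrast, 14 of 15 endodermal and hepatic genes passed as higher and 1 as lower in NKX2-5 shRNA cells (median 2.39) and 12 and 0 in ZNF503 shRNA cells (2.03), beside 24.4% and 27.2% of all genes that passed as higher. APOA1, an apolipoprotein made by liver, rose by 3.35 (SE 0.33) and 3.16 (SE 0.33) there. Hepatic and yolk sac markers summed to 4119 to 4306 and 3252 to 3302 CPM in these lines against 376 to 786 CPM in WT; their part in the GATA4 and GATA6 levels was not tested. The study had already named genes of both lists, among them MYH6, TNNT2, FOXA2 and AFP, as changed in these data. The counts of both lists therefore partly restate its findings.

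**Figure D5:**
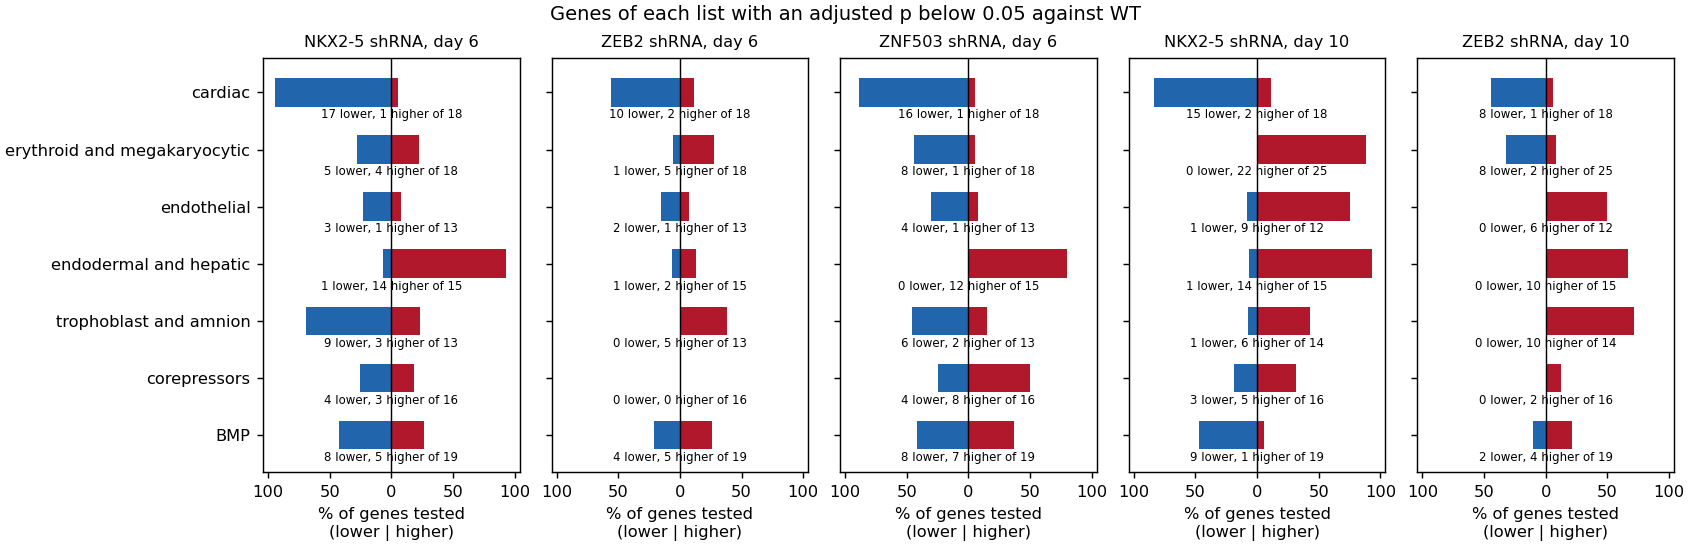
Share of the tested genes of each list that passed as lower (blue, left) or higher (red, right) than WT, in percent, for the 5 comparisons of days 6 and 10, with the counts under each bar. Cardiac genes lie to the left in all 5 panels, endodermal genes to the right in NKX2-5 and ZNF503 shRNA cells, and erythroid genes to the right in NKX2-5 shRNA cells at day 10 (22 of 25).

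Of 16 corepressor genes whose products FOG proteins bind, 3 passed as higher and 4 as lower at day 6 in NKX2-5 shRNA cells (median 0.06), beside 49.1% of all genes. In ZNF503 shRNA cells 8 passed as higher and 4 as lower (median 0.33), beside 55.7% of all genes. In ZEB2 shRNA cells 0 passed as higher and 0 as lower (median 0.01), beside 11.0% of all genes. NR2F2, an orphan nuclear receptor of venous and atrial cells that also binds FOG2, had the largest rise, at 0.72 (SE 0.23) in NKX2-5 shRNA and 1.88 (SE 0.23) in ZNF503 shRNA cells at day 6 and 2.88 (SE 0.47) in ZEB2 shRNA cells at day 10. HDAC1, a histone deacetylase of NuRD, changed by -0.60 (SE 0.12) and -0.55 (SE 0.12) in NKX2-5 and ZNF503 shRNA cells. Among BMP genes at day 6, BMP5 changed by -2.78 (SE 0.16), -1.37 (SE 0.15) and -2.91 (SE 0.16) in NKX2-5, ZEB2 and ZNF503 shRNA cells, and the antagonist NOG rose by 0.89 (SE 0.16) and 1.46 (SE 0.17) in the first and last.

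Whether a member moved differently over time in a line than in WT was tested as the difference of steps. From day 0 to day 2 the members that passed numbered 1 for the NKX2-5 hairpin (3.99% of all genes), 1 for the ZEB2 hairpin (1.83% of all genes), 2 for the ZNF503 hairpin (25.0% of all genes), out of 7 tested. From day 2 to day 6 they numbered 4 for the NKX2-5 hairpin (46.0% of all genes), 1 for the ZEB2 hairpin (5.89% of all genes), 4 for the ZNF503 hairpin (48.2% of all genes), again of 7. From day 6 to day 10 they numbered 4 for the NKX2-5 hairpin (26.0% of all genes), 1 for the ZEB2 hairpin (7.04% of all genes) of 8. GATA6 was the member that passed in the first step for all 3 hairpins, with a smaller rise than WT for the ZEB2 hairpin and larger rises for the others, of which that for ZNF503 started from 0 reads, so that its size depends on the prior count. For the NKX2-5 and ZEB2 hairpins this is about the day 0 difference with its sign turned, since at day 2 GATA6 differed from WT by 0.03 (SE 0.17, adjusted p = 0.91) and -0.03 (SE 0.17, adjusted p = 0.98) on the log2 scale.

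Likeness of pattern was measured by Pearson's r of log2(CPM + 1) over the 15 group means among 17031 genes, as a description; the groups share lines, days and libraries. Among the genes nearest to GATA1 were CARD16 and HEMGN (r of 0.999 or more), of which HEMGN is a red cell nuclear protein; with 1 group far above the rest, such r values describe that group alone. ZFPM2 was most like ACTA2, TGM2 and RGS3 (r from 0.987 to 0.991), of which ACTA2 is smooth muscle actin, and GATA6 most like BTG2, CASTOR3P and PDGFRA (r from 0.963 to 0.965). The nearest genes were CTDSP1, MATCAP2 and PCDH7 for GATA4, ADCY7, ZNF550 and ALPK3 for GATA5, GSDME, ZNF611 and SMAD6 for GATA3, CCDC80, CERS6 and HAPLN1 for GATA2 and SIDT2, TXNDC11 and DVL3 for ZFPM1, with r from 0.940 to 0.987. Among the members themselves r was highest for GATA3 with GATA5 (0.95), GATA4 with GATA6 (0.94) and GATA5 with ZFPM2 (0.93), and lowest for GATA1 with GATA3 (0.09).

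Ranked over the 15 groups, GATA3 and GATA6 stood highest in ZNF503 shRNA cells at day 6 with no overlap with the next group, ZFPM2 in WT cells at day 10 and GATA1 in NKX2-5 shRNA cells at day 10, likewise. GATA4 was also highest in ZNF503 shRNA cells at day 6, but its range overlapped that of WT cells at day 10, and the order of the next 4 groups could not be set because neighbours overlapped. The highest groups of GATA2 (WT day 6), GATA5 (WT day 10) and ZFPM1 (NKX2-5 shRNA day 10) overlapped those that followed.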

How the data were processed

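RNA of H1 cells was sequenced by the study from stranded total RNA libraries. Per the labels and the study's methods, the authors aligned reads to hg19 with TopHat 2.0.14 (Bowtie2 2.2.1.0, SAMtools 0.1.19.0), counted them per RefSeq gene region with RSeQC and deposited raw counts; the strand setting of the counting is not given in the sources used here. Of 42704 rows, 41627 carry an identifier; 40285 of these (96.8%, with 97.1% of counts) were matched to 23189 symbols, keeping the row with the most counts per gene. In 4 columns (day 10 replicates 1 and 2 of WT and of ZEB2 shRNA) the row order broke with the identifiers (median Spearman correlation with replicate 3 of up to 0.0131 over 41 blocks of 1000 rows), and they were left out.

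Groups came from the labels. For each day, the counts of all lines were fitted with edgeR 4.0.16 (R 4.3.3; TMM, filterByExpr, quasi-likelihood test, two-sided, Benjamini-Hochberg over all genes tested); an adjusted p below 0.05 passed. Time was tested in the same way over the WT libraries of all days, steps over all days of a line, and differences between steps over all groups of the 2 days. The fit was tested on simulated data. SE was taken as log2 fold change over the root of F, and CPM uses 1 TMM scaling over 30 libraries. Alternatives were RLE size factors, no filter, other RefSeq rows, 1 fit of all libraries, DESeq2 1.42.0, a replicate block, each library left out and stricter fold limits; those for steps and for differences between lines or steps were chosen after seeing the data. The members and lists were chosen with earlier results of these data known. Beside the members, the text names the hairpin targets, the antisense RNAs, up to 2 rises and 2 falls per list and comparison (passed, no overlap, at least 1 CPM in the higher group) and the 3 most alike genes per member. Deviations of same-numbered replicates correlated at -0.299 to 0.440 over 19 pairs of groups, over 0.1 in 4 of the 6 pairs at day 2 and in no other pair, so the numbers were not taken to pair the samples. Promoter sequences are from RefSeq (GRCh38.p14); gene positions are from the GENCODE annotation of GRCh37. Values of 2 genes that this rule would name are not reported here.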

Additional observations from a re-analysis of the deposited data

Results flagged for a closer look

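Some steps of members in a shRNA line differed from the same step in WT by a test of the difference itself (edgeR interaction term, adjusted over all genes, 2 libraries per group) and by at least 4-fold; the values are log2 differences of steps, shRNA line minus WT, and all of them use the WT libraries of those days. From day 0 to day 2, GATA6 rose more than in WT in NKX2-5 shRNA cells (3.10, SE 0.68, adjusted p = 0.016) and less in ZEB2 shRNA cells (-2.10, SE 0.37, adjusted p = 0.0067). These are about the day 0 differences from WT with the sign turned (-3.09 and 2.08), as the day 2 differences were 0.03 (SE 0.17) and -0.03 (SE 0.17), and the NKX2-5 value rests on 1 and 5 reads at day 0. The first call was lost without WT day 0 replicate 2 (2.86, adjusted p = 0.091) and the second without WT day 0 replicate 1 (-1.89, adjusted p = 0.072). In ZNF503 shRNA cells the difference was 5.11 (SE 1.50, adjusted p = 0.020), but GATA6 had 0 reads at day 0 in both libraries of that line, so this size depends on the prior count and is no measure of the change; the call was lost without either of those libraries (adjusted p = 0.064 and 0.14).

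From day 2 to day 6, GATA6 (3.63, SE 0.24, adjusted p = 5.6e-09) and GATA4 (2.72, SE 0.19, adjusted p = 9.9e-09) rose more in ZNF503 shRNA cells than in WT, calls that held without any 1 library. GATA3 also rose more there (2.49, SE 0.86, adjusted p = 0.024), from 0.0898 and 0 CPM at day 2, but this difference was -2.98 (adjusted p = 0.48) without WT day 2 replicate 1 and 6.74 (adjusted p = 0.013) without ZNF503 shRNA day 2 replicate 1. ZFPM2 rose less in NKX2-5 shRNA cells (-3.91, SE 0.81, adjusted p = 8.5e-04), a call that held without any 1 library.

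From day 6 to day 10, GATA2 fell in WT and not in NKX2-5 shRNA cells (difference 2.98, SE 0.55, adjusted p = 0.0024), which held without any 1 library, nor in ZEB2 shRNA cells (2.15, SE 0.54, adjusted p = 0.033), which was lost without any of the 8 libraries except WT day 10 replicate 4 (adjusted p up to 0.13). No group had 4 or more libraries in use, so single libraries were not tested as outliers.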

How the results depend on the processing

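Of 169 results of members and their antisense RNAs that passed, in all kinds of comparison, 119 passed in the same direction under every alternative run. The call was lost in at least 1 alternative for 49 and reversed for 1. Results that did not pass were followed only for members, against WT and against day 0 in WT. Of these 56, 10 passed in at least 1 alternative and 19 changed sign. Most lost calls came from leaving out a library, which leaves a group with 1 library that is taken to vary like the others. The number of members that passed was moved over 1.5 times by these settings. In NKX2-5 shRNA cells at day 0 it was 2, and 1 with RLE size factors, with the second RefSeq row of GATA2 and GATA3, in 1 fit of all libraries and with the replicate block. In ZNF503 shRNA cells at day 0 it was 2, and 4 without a filter. In NKX2-5 shRNA cells at day 2 it was 1, and 0 in 1 fit of all libraries. In ZEB2 shRNA cells at day 6 it was 2, and 1 in 1 fit of all libraries. In NKX2-5 shRNA cells at day 10 it was 2, and 6 in 1 fit of all libraries and 4 by DESeq2. Under the stricter limits (2-fold and 10% false discovery at day 0, 4-fold and 10% at day 2, 8-fold and 1% at days 6 and 10) it was 0 in NKX2-5 shRNA and 1 in ZNF503 shRNA cells at day 2, 0 in all 3 lines at day 6, 1 in NKX2-5 shRNA and 0 in ZEB2 shRNA cells at day 10, and 3 in WT at day 2. With each library left out, the number ranged from 0 to 1 at day 0 in NKX2-5 shRNA, from 0 to 0 in ZEB2 shRNA and from 0 to 1 in ZNF503 shRNA cells, from 0 to 1 at day 2 in NKX2-5 shRNA cells, from 1 to 2 at day 6 in ZEB2 shRNA cells, from 2 to 4 at day 10 in NKX2-5 shRNA and from 0 to 0 in ZEB2 shRNA cells, and from 3 to 4 in WT at day 2. The causes were not tested.

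Log2 fold changes whose sign turned when 1 library was left out ranged as follows. In NKX2-5 shRNA cells GATA3 ranged from -0.38 to 0.97 and ZFPM1 from -0.075 to 0.68 at day 0, GATA3 from -1.20 to 5.06 and GATA6 from -0.13 to 0.18 at day 2, and GATA4 from -0.55 to 0.18 and GATA6 from -0.23 to 0.13 at day 10. In ZEB2 shRNA cells GATA2 ranged from -0.055 to 0.74 and GATA5 from -0.019 to 0.51 at day 0, GATA5 from -0.089 to 0.23, GATA6 from -0.22 to 0.14 and ZFPM1 from -0.067 to 0.40 at day 2, and GATA5 from -0.56 to 0.33, GATA6 from -0.33 to 0.039 and ZFPM1 from -0.032 to 1.23 at day 10. In ZNF503 shRNA cells at day 2 GATA2 ranged from -0.48 to 0.021, GATA3 from -5.27 to 4.51, ZFPM1 from -0.85 to 0.22 and ZFPM2 from -1.51 to 0.48, and GATA2 was 0.079 with the third RefSeq row. GATA2 in WT at day 10 against day 0 ranged from -0.076 to 0.88, and the step of GATA3 from day 2 to day 6 in ZNF503 shRNA cells against WT from -2.98 to 6.74. None of these had passed except the last.

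The labels give same-numbered replicates no more than a shared number, and their deviations correlated at over 0.1 in 4 of 6 pairs of groups at day 2 and in 0 of 13 on other days. With the replicate block, 1 member passed in NKX2-5 shRNA cells at day 0 and 3 in ZEB2 shRNA cells at day 10, against 2 and 4 without it; the call lost in the first was that of GATA2 (adjusted p = 0.078), and in the second GATA1 was not tested. The other counts of members against WT and over time in WT were equal. The difference in GATA6 between NKX2-5 and ZNF503 shRNA cells at day 6 (-0.35, adjusted p = 0.064) and that in the step of GATA4 from day 2 to day 6 between ZEB2 shRNA cells and WT (0.64, adjusted p = 0.057) were no longer past the threshold with the block. The block could not be fitted where day 10 is compared between replicates 1 and 2 and replicates 3 and 4. Depth limits GATA1 before day 10, GATA6 at day 0, and GATA3 and ZFPM2 at days 0 and 2, where single libraries held as few as 0 to 9 reads.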
